A study of Homo sapiens with 2 samples.

Results

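A small set of mesenchymal stem cells had been exposed to transforming growth factor beta 1 (TGFB1), yet the authors' clustering placed them among untreated cells. The set was taken from the authors' cell table as the cells of the TGFB1 library assigned to clusters 1, 2 or 6, and it held 123 of the 20656 cells of both libraries. There were 56 such cells in cluster 1, 46 in cluster 2 and 21 in cluster 6, which is 0.446%, 0.366% and 0.167% of the 12555 TGFB1 cells. Of all cells in these clusters, TGFB1 cells made up 1.5%, 1.46% and 2.43%.

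The cells were human mesenchymal stem cells from adipose tissue, bought from a commercial supplier, and both cultures were grown close to confluence and starved overnight. One culture then received TGFB1 at 10 ng/mL for 24 hours and the other was left untreated. Each condition gave 1 single-cell library of the 10x type, in which transcripts are counted as unique molecular identifiers (UMIs). The question asked here was which genes of the 123 cells lay at the level of treated cells and which at the level of untreated cells. Treated cells were represented by the 10267 TGFB1 cells of clusters 0, 3 and 4, and untreated cells by the 7623 untreated cells of clusters 1, 2 and 6.

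TGFB1 binds a pair of receptor kinases on the cell surface, which activate SMAD transcription factors. In fibroblasts and mesenchymal stromal cells the pathway is known for raising contractile and matrix genes and for producing myofibroblasts, and interleukin 11 (IL11), a secreted cytokine of the interleukin 6 family, is a known TGFB1 target there. SMAD7 and BAMBI are inhibitors that the pathway itself induces.

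The 123 cells held 2231576 UMIs, the treated cells of clusters 0, 3 and 4 held 183588239 and the untreated cells held 158796964. A cell had a median of 16810 UMIs in the 123 cells, 16427 in treated cells and 19217 in untreated cells. The median mitochondrial share was 2.34% in the 123 cells, 2.42% in treated cells and 2.69% in untreated cells. A gene with no UMI in the 123 cells could still have up to 1.34 CPM, meaning UMIs scaled to a common total of 1e+06 per group, the level of 3 UMIs. None of the 123 cell barcodes occurred in the untreated library, which allows a share of up to 2.44%, while 18 of the other 12432 TGFB1 cells shared a barcode with it (0.145%). With 1 library per condition no test was possible, and every interval given covers counting error only. The clusters were made from these same cells, so that these cells lie near untreated cells is in part set by how they were chosen, and their levels are given as a description. Which genes entered the clustering is not stated.

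The labelled cell type was checked first. Of 20 stromal identity genes, 15 were measured at 20 CPM or more, among them VIM, an intermediate filament protein, at 7234 CPM in the 123 cells, 5036 CPM in treated cells and 8319 CPM in untreated cells. THY1, a surface marker of stromal cells, stood at 718 CPM in the 123 cells, 613 CPM in treated cells and 809 CPM in untreated cells. Of 9 immune markers 6 had no UMI in the 123 cells, PTPRC (CD45) among them, and their summed level was 27.3 CPM in the 123 cells, 18.1 CPM in treated cells and 26.2 CPM in untreated cells. Of 9 endothelial markers 6 had no UMI, with sums of 10.8 CPM in the 123 cells, 19.0 CPM in treated cells and 15.2 CPM in untreated cells. All 7 markers of mature adipocytes had no UMI in the 123 cells. Pericyte and mural markers, 2 of 9 with no UMI, summed to 123 CPM in the 123 cells, 87.5 CPM in treated cells and 125 CPM in untreated cells. Epithelial markers, 4 of 7 with no UMI, summed to 458 CPM in the 123 cells, 274 CPM in treated cells and 717 CPM in untreated cells, most of it KRT19, a keratin, at 434 CPM in the 123 cells, 195 CPM in treated cells and 697 CPM in untreated cells. Melanocytic markers, 4 of 7 with no UMI, summed to 33.6 CPM in the 123 cells, 17.6 CPM in treated cells and 48.1 CPM in untreated cells. Their part in the results was not tested.

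**Figure D1:**
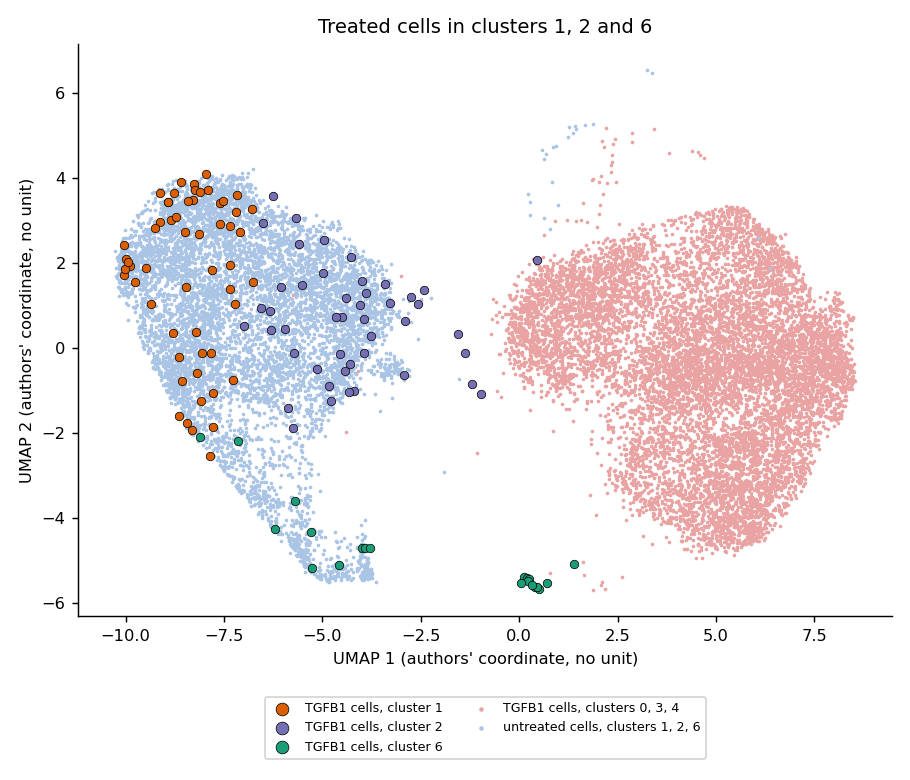
The authors' UMAP coordinates (no unit) of the 123 TGFB1 cells in clusters 1, 2 and 6 (large points, coloured by cluster), of TGFB1 cells in clusters 0, 3 and 4 and of untreated cells in clusters 1, 2 and 6. All 56 TGFB1 cells of cluster 1 lie with the untreated cells, whereas the 21 of cluster 6 divide into a set of 10 on the untreated side and a set of 11 at UMAP 1 values above -2.5.

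Between the treated and the untreated cells, 273 of 6678 genes were higher by 2-fold or more in treated cells (4.09%) and 357 were lower (5.35%). These genes are called treated-high and untreated-high below, and they had to reach 20 CPM in 1 of the groups. The position of each gene in the 123 cells was taken on the log2 scale, with 0 at the untreated and 1 at the treated level. A gene at 0.25 or less was counted at the untreated level, and a gene at 0.75 or more at the treated level.

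Few genes reached the treated level. Among the 273 treated-high genes, 6 lay at the treated level (2.2%), 188 lay between and 79 lay at the untreated level (28.9%), with a median position of 0.34 (quartiles 0.23 and 0.45). Among the 357 untreated-high genes, 2 lay at the treated level (0.56%), 94 lay between and 261 lay at the untreated level (73.1%), with a median position of 0.14. Most genes were nonetheless displaced toward the treated side: 263 of the 273 treated-high and 275 of the 357 untreated-high genes.

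The gap between the directions depended on the scale. As a share of the CPM difference between untreated and treated cells, the median was 21.6% for treated-high genes and 22.7% for untreated-high genes. Scaling mattered as well: TMM factors shifted the median log2 ratio of treated over untreated cells by 0.17 and that of the 123 cells over untreated cells by -0.07. With TMM factors 409 genes were treated-high and 263 untreated-high, 214 of the treated-high genes lay at the untreated level, and the median positions were 0.24 for treated-high and 0.19 for untreated-high genes.

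**Figure D2:**
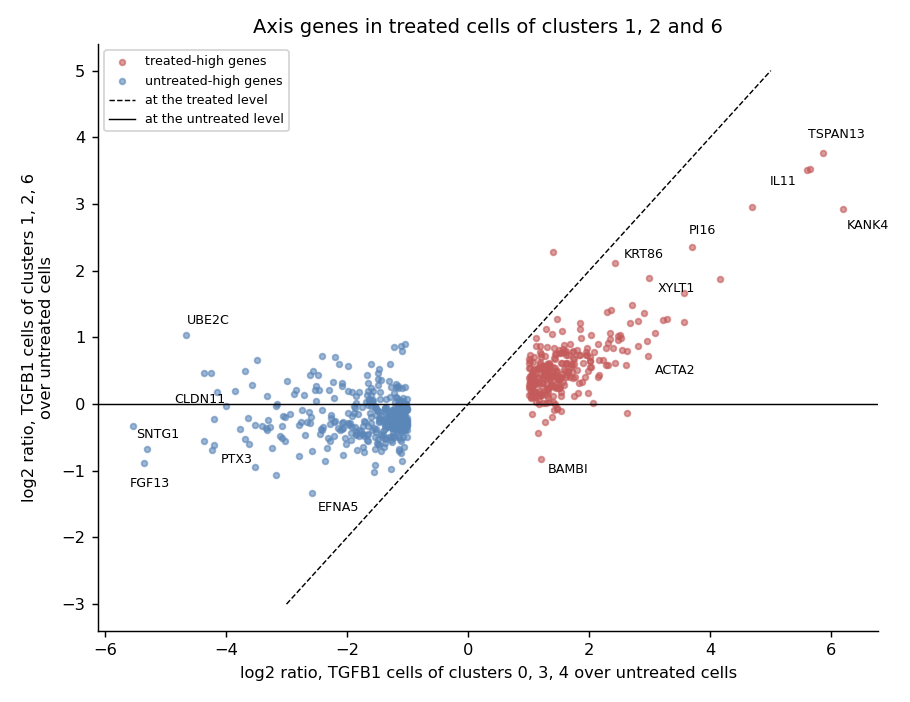
Log2 ratio of CPM over untreated cells of clusters 1, 2 and 6, for the 123 TGFB1 cells of the same clusters (vertical axis) and for TGFB1 cells of clusters 0, 3 and 4 (horizontal axis), 1 point per gene that differs by 2-fold or more. Treated-high genes lie mostly between the line of the untreated level and the dashed line of the treated level (median position 0.34), and untreated-high genes lie closer to the untreated level (median position 0.14).

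Compared directly with untreated cells of the same clusters, 56 of 6741 genes were higher by 2-fold or more in the 123 cells (0.831%) and 6 were lower (0.089%). Compared with treated cells of clusters 0, 3 and 4, 327 of 6739 genes were higher in the 123 cells (4.85%) and 148 were lower (2.2%). TMM factors gave 208 higher and 298 lower genes in the comparison with treated cells, so this split changed sides with the scaling. Without cells holding a UMI of the cycling genes MKI67 or TOP2A, 15 genes were higher in the 123 cells than in untreated cells, and 174 treated-high genes lay at the untreated level with a median position of 0.19. With an equal weight for each cell the count at the untreated level was 139.

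IL11 had 75 UMIs in the 123 cells. Its level was 33.6 CPM in the 123 cells (26.4 to 42.1, exact 95% Poisson interval), 145 CPM in treated cells and 2.91 CPM in untreated cells. That is 21.6% of the CPM difference between untreated and treated cells (16.5% to 27.6%). IL11 was detected in 33 of the 123 cells, and 18 of these cells held 1 UMI. After each cell was thinned to 7500 UMIs, it was detected in 12.5% of 112 of these cells, 52.9% of treated cells and 2.18% of untreated cells. Without thinning it was detected in 26.8% of the 123 cells, 69.0% of treated cells and 5.23% of untreated cells. The level differed between clusters, with 26.0 CPM in TGFB1 cells of cluster 1, 21.5 CPM in cluster 2 and 64.7 CPM in cluster 6. Untreated cells of the same clusters had 2.80, 2.64 and 4.08 CPM. IL11 lies at chr19:55364389-55370463 (GRCh38, GENCODE release 29).

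The other measured members of the interleukin 6 family differed little from untreated cells in sum over the 123 cells. Of its 8 measured genes, 1 was higher by 1.5-fold or more in the 123 cells than in untreated cells, IL11 itself, and none was lower. Over all 6907 genes measured in any group, 3.4% were higher and 1.04% lower by this rule. In cluster 6, 1 of 8 family genes was higher and 2 lower than in untreated cells of that cluster (13.6% and 12% of all genes). IL6, which encodes the family's founding cytokine, stood at 69.9 CPM in the 123 cells, 131 CPM in treated cells and 85.6 CPM in untreated cells. IL6ST, the shared receptor subunit gp130, stood at 277 CPM in the 123 cells, 181 CPM in treated cells and 321 CPM in untreated cells.

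Part of the SMAD response list was higher in the 123 cells than in untreated cells, most of all in cluster 6. Of 18 measured genes, 9 were higher and 0 lower by 1.5-fold in the 123 cells than in untreated cells, with a median log2 ratio of 0.63 against 0.03 over all measured genes. In treated cells 14 were higher and 0 lower than in untreated cells, with a median of 1.44 (9.61% of all genes were higher and 12.7% lower). In the 21 TGFB1 cells of cluster 6, 15 of 19 were higher and 2 lower than in untreated cells of that cluster, with a median of 1.03 (13.6% of all genes were higher and 12% lower). In clusters 1 and 2, which held the other 102 cells, 5 of 18 were higher in each, with medians of 0.25 and 0.33. In cluster 1, 0 were lower, and in cluster 2, 1 was lower. Of all genes, 2.17% and 3.58% were higher and 2.22% and 9.27% lower in these clusters. Compared with treated cells, 13 of the 18 were lower in the 123 cells (6.6% of all genes were lower and 12.3% higher). CCN2, a matricellular growth factor, had 1730 CPM in the 123 cells, 3305 CPM in treated cells and 995 CPM in untreated cells. PMEPA1, which restrains SMAD signalling, reached 37.2 CPM in the 123 cells, 145 CPM in treated cells and 15.6 CPM in untreated cells. These genes lay above the untreated and below the treated level. Of the listed genes that differ by 2-fold, SMAD7 lay furthest toward treated cells on the linear scale, at 25.5 CPM in the 123 cells, 34.9 CPM in treated cells and 14.2 CPM in untreated cells, with an interval of 24.9% to 91.2% of the difference.

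The inhibitory receptor BAMBI was below the untreated level in sum. It had 14 UMIs, or 6.27 CPM (3.43 to 10.5), in the 123 cells, 25.4 CPM in treated cells and 11.1 CPM in untreated cells. Of the 14 UMIs, 12 were in cluster 1, at 10.7 CPM in TGFB1 cells against 11.3 CPM in untreated cells. Cluster 2 held 2 UMIs, or 3.31 CPM, against 12.99 CPM in untreated cells, and cluster 6 held 0, which allows up to 5.88 CPM, against 5.17 CPM in untreated cells. The ligand INHBA, which encodes an activin subunit, stood at 184 CPM in the 123 cells, 411 CPM in treated cells and 107 CPM in untreated cells. Of the listed ligand, receptor and SMAD genes, 4 were 2-fold lower in treated cells, among them TGFBR3, ITGB8 and SMAD3. All 4 lay at the untreated level in the 123 cells, as did 73.1% of all 357 untreated-high genes. TGFBR3, a co-receptor for TGFB ligands, had 63.6 CPM in the 123 cells, 10.1 CPM in treated cells and 67.8 CPM in untreated cells. ITGB8, an integrin subunit that activates latent TGFB, had 68.6 CPM in the 123 cells, 6.50 CPM in treated cells and 88.6 CPM in untreated cells. SMAD3 had 76.6 CPM in the 123 cells, 18.5 CPM in treated cells and 88.7 CPM in untreated cells.

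Contractile genes lay nearer to the untreated level. Of 20 measured genes, 3 were higher and 0 lower by 1.5-fold in the 123 cells than in untreated cells (median log2 ratio 0.24). In treated cells 15 were higher and 0 lower (median 0.82). Over all genes 3.4% were higher and 1.04% lower in the 123 cells, and 9.61% higher and 12.7% lower in treated cells. ACTA2, the smooth muscle actin that marks myofibroblasts, had 276 CPM in the 123 cells (254 to 298), 1309 CPM in treated cells and 167 CPM in untreated cells. This is 9.49% of the difference (7.62% to 11.5%), and 61 of its 615 UMIs came from 1 cell. By cluster, ACTA2 stood at 237, 473 and 125 CPM in TGFB1 cells of clusters 1, 2 and 6, and at 144, 232 and 95.3 CPM in untreated cells of those clusters. TPM1, a tropomyosin, had 2785 CPM in the 123 cells, 7624 CPM in treated cells and 1372 CPM in untreated cells, which is 22.6% of the difference (21.5% to 23.7%). CNN1, the actin-binding protein calponin, had 155 CPM in the 123 cells, 442 CPM in treated cells and 98.2 CPM in untreated cells.

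Summed over the 123 cells, 0 of 30 measured matrix genes were higher and 0 lower by 1.5-fold than in untreated cells, beside 3.4% and 1.04% of all genes. Single clusters differed from this sum. In cluster 6, 11 of 31 were higher and 5 lower in TGFB1 than in untreated cells, beside 13.6% and 12% of all genes measured there. In cluster 2, 0 of 30 were higher and 3 lower (3.58% and 9.27% of all genes), and in cluster 1, 2 were higher and 0 lower (2.17% and 2.22%). In treated cells 12 of 30 were higher and 3 lower, beside 9.61% and 12.7% of all genes. COL1A1, the main chain of type I collagen, had 6008 CPM in the 123 cells, 9370 CPM in treated cells and 6552 CPM in untreated cells. FN1, fibronectin, had 7761 CPM in the 123 cells, 12551 CPM in treated cells and 7414 CPM in untreated cells. DCN, the proteoglycan decorin, was lower in treated cells and lay part of the way toward them, with 1480 CPM in the 123 cells, 770 CPM in treated cells and 2048 CPM in untreated cells.

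Among genes that differ by 4-fold or more, those with high positions included some that were low in count or uneven between cells. KRT86, a hair keratin, lay highest among these treated-high genes, at 32.7 CPM in the 123 cells, 40.7 CPM in treated cells and 7.58 CPM in untreated cells. It was found in 15 of the 123 cells, and 45.2% of its 73 UMIs came from 1 cell. KRT86 is nearly identical to other hair keratins, so its reads are uncertain. XYLT1, which starts glycosaminoglycan chains on proteoglycans, had 137 CPM in the 123 cells, 293 CPM in treated cells and 36.9 CPM in untreated cells. By cluster, XYLT1 stood at 62.7, 39.7 and 415 CPM in TGFB1 cells of clusters 1, 2 and 6, and 30.1% of its UMIs came from 1 cell. PI16, a marker of adventitial fibroblasts, had 28.7 CPM in the 123 cells, 72.9 CPM in treated cells and 5.6 CPM in untreated cells. By cluster, PI16 stood at 44.8, 21.5 and 1.96 CPM in TGFB1 cells of clusters 1, 2 and 6, the last from 1 UMI. It was found in 18 of the 123 cells, and 26.6% of its 64 UMIs came from 1 cell. Both genes were lower in cluster 2 than in cluster 1, and XYLT1 was highest and PI16 lowest in cluster 6.

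Genes at the treated level with a smaller distance included a ligand and a cell surface protein. NRG1, a ligand of the ERBB receptors, had 99.0 CPM in the 123 cells, 113 CPM in treated cells and 40.9 CPM in untreated cells. TENM4, a teneurin, had 58.3 CPM in the 123 cells, 69.7 CPM in treated cells and 31.9 CPM in untreated cells. HS3ST3B1, a heparan sulfate sulfotransferase, had 26.9 CPM in the 123 cells, 29.3 CPM in treated cells and 13.5 CPM in untreated cells. NRG1, TENM4 and HS3ST3B1 were chosen after their values were seen. NRG1 stood at 68.9, 19.9 and 259 CPM in TGFB1 cells of clusters 1, 2 and 6, with the highest level in cluster 6.

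Some treated-high genes lay at the untreated level and others well above it at a low count. KANK4 had 10 UMIs, or 4.48 CPM (2.15 to 8.24), in the 123 cells, 43.2 CPM in treated cells and 0.59 CPM in untreated cells, a position of 0.47. PTGS1, the constitutive cyclooxygenase, had 4.93 CPM in the 123 cells, 20.3 CPM in treated cells and 4.86 CPM in untreated cells. SCD, a fatty acid desaturase, had 9.86 CPM in the 123 cells, 39.9 CPM in treated cells and 6.56 CPM in untreated cells. The counting intervals of PTGS1 and SCD both include the untreated level. TSPAN13, a tetraspanin, had 12.1 CPM in the 123 cells, 51.6 CPM in treated cells and 0.89 CPM in untreated cells, a position of 0.64. TSPAN13 stood at 2.69, 1.66 and 45.1 CPM in TGFB1 cells of clusters 1, 2 and 6, and LDLRAD4, another inhibitor of TGFB signalling, at 12.5, 1.66 and 43.1 CPM. A level of 1.66 CPM in cluster 2, like 1.96 CPM in cluster 6, is that of 1 UMI.

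**Figure D3:**
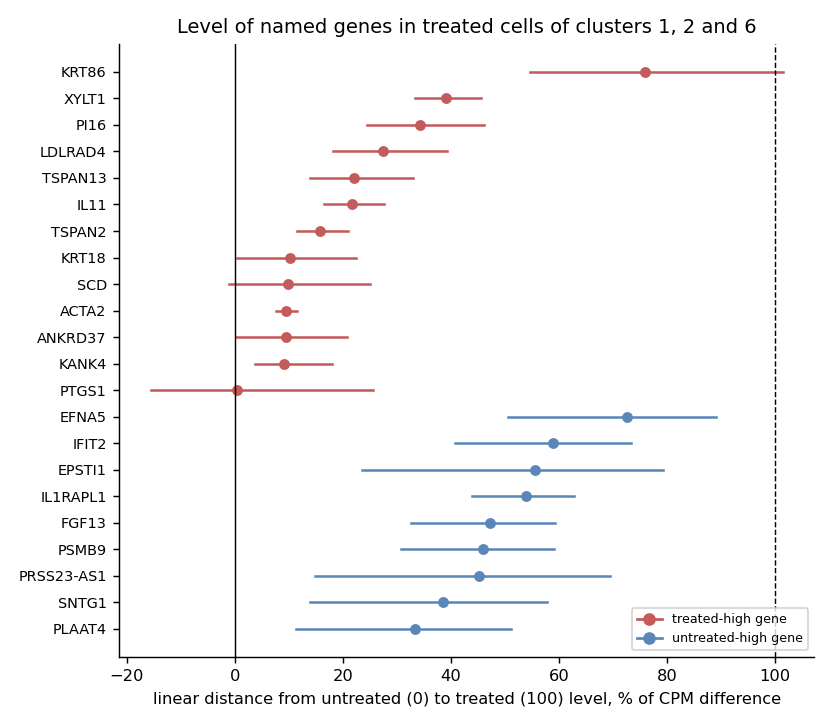
Level of named genes in the 123 TGFB1 cells as a percent of the CPM difference from untreated (0) to treated cells (100), with 95% counting intervals of the sum over the 123 cells as horizontal bars. The genes are drawn from those that differ by 4-fold or more between treated and untreated cells. Among them KRT86 lies highest of the treated-high genes at 76.0%, IL11 lies at 21.6% and ACTA2 at 9.49%, while EFNA5 lies highest of the untreated-high genes that differ by 4-fold or more at 72.6%.

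By position, genes that were lower in treated cells mostly lay at the untreated level, 261 of 357, but many were displaced from it. Of the 357 genes, the counting interval held the untreated value for 158, the treated value for 5 and neither value for 194. The 194 include genes displaced away from treated cells, such as ANLN, and 82 of the 357 had a position below 0. With linear positions, 197 lay at the untreated level. PTX3, the soluble pattern receptor pentraxin 3, had 132 CPM in the 123 cells, 10.9 CPM in treated cells and 201 CPM in untreated cells. FGF13, an intracellular FGF homologue, had 31.4 CPM in the 123 cells, 1.42 CPM in treated cells and 58.1 CPM in untreated cells, at 47.1% of the difference but at a position of 0.17. PLAAT4 had 24.2 CPM in the 123 cells, 1.72 CPM in treated cells and 35.4 CPM in untreated cells. In all of these the 123 cells lay far above the treated cells. EFNA5, an ephrin ligand, lay furthest toward treated cells among genes that differ by 4-fold or more, with 11.7 CPM in the 123 cells, 4.93 CPM in treated cells and 29.5 CPM in untreated cells, a position of 0.52. It had 26 UMIs in 19 of the 123 cells.

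Interferon response genes lay near the untreated level in clusters 1 and 2 and below it in cluster 6. Of 14 measured genes 0 were higher and 2 were lower by 1.5-fold in the 123 cells than in untreated cells, while 6 were lower in treated cells. Over all genes 3.4% were higher and 1.04% lower in the 123 cells, and 12.7% were lower in treated cells. In cluster 6, 8 of 14 were lower and 0 higher in TGFB1 than in untreated cells, with a median log2 ratio of -0.72 against 0.03 over all genes, of which 12% were lower. In cluster 1, 1 of 15 was lower and 1 higher, and in cluster 2 none of 15 passed in either direction. IFIT1, an antiviral RNA-binding protein, had 56.9 CPM in the 123 cells, 7.45 CPM in treated cells and 72.4 CPM in untreated cells. IFIT2 had 20.2 CPM in the 123 cells, 4.67 CPM in treated cells and 42.3 CPM in untreated cells. IFIT1 stood at 77.9, 64.6 and 1.96 CPM in TGFB1 cells of clusters 1, 2 and 6, against 67.9, 91.7 and 39.95 CPM in untreated cells of those clusters. The level in cluster 6 rests on 1 UMI.

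Stromal identity and adipogenic genes were nearer to the untreated level. None of 15 stromal identity genes passed 1.5-fold against untreated cells, while 8 were lower and 1 higher in treated cells. Over all genes 3.4% were higher and 1.04% lower in the 123 cells, so none of 15 is near the share of all genes. In treated cells 9.61% of all genes were higher and 12.7% lower. TWIST2, a transcription factor of mesenchymal cells, had 658 CPM in the 123 cells, 209 CPM in treated cells and 817 CPM in untreated cells. PPARG, the main regulator of adipocyte formation, had 25.1 CPM in the 123 cells, 5.52 CPM in treated cells and 21.9 CPM in untreated cells. Of 8 adipogenic genes 2 were higher and 0 lower by 1.5-fold in the 123 cells than in untreated cells. In treated cells 5 of the 8 were lower and 1 was higher. Of 9 inflammatory genes 1 was higher and 2 were lower in the 123 cells than in untreated cells (3.4% and 1.04% of all genes). SOD2, the mitochondrial superoxide dismutase, had 242 CPM in the 123 cells, 96.2 CPM in treated cells and 336 CPM in untreated cells.

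**Figure D4:**
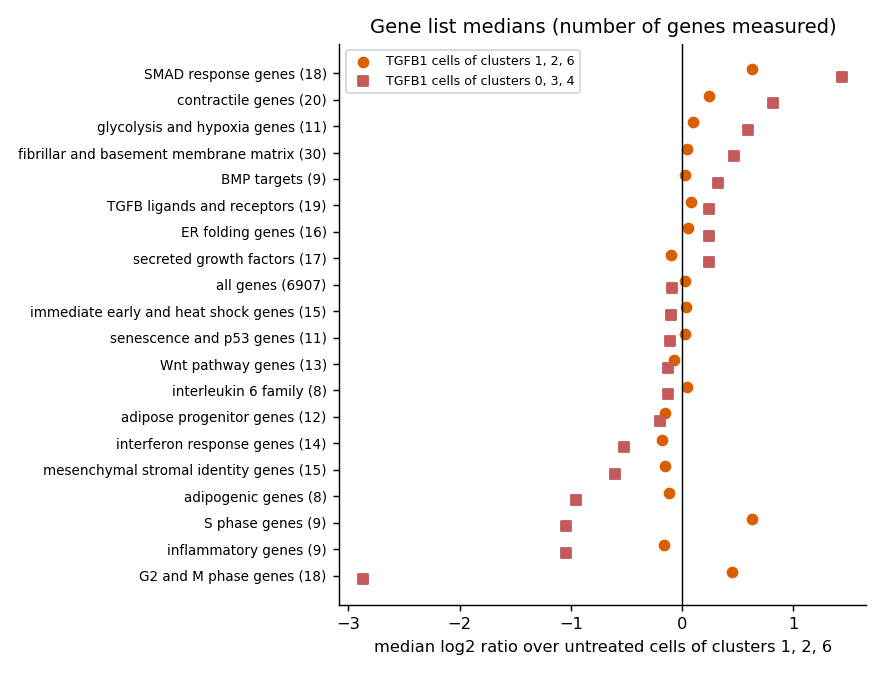
Median log2 ratio over untreated cells of clusters 1, 2 and 6 for each gene list, in the 123 TGFB1 cells of the same clusters (circles) and in TGFB1 cells of clusters 0, 3 and 4 (squares), with the number of genes measured in brackets. The circles lie nearer to 0 than the squares for SMAD response (0.63 and 1.44), contractile (0.24 and 0.82) and inflammatory genes (-0.16 and -1.05). Cell cycle genes lie above 0 in the 123 cells and below 0 in the treated cells. Against untreated cells of cluster 6 alone, TGFB1 cells of that cluster had medians of -0.36 for G2 and M phase genes and 0.83 for S phase genes.

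The averages hide a wide spread between cells. For each cell the treated share was computed, the percent of its UMIs of treated-high and untreated-high genes that came from treated-high genes. Its median was 33.3% in the 123 cells (quartiles 24.1% and 50.6%, range 12% to 75.3%), 76.2% in treated cells (quartiles 72.0% and 79.6%) and 25.3% in untreated cells (quartiles 20.2% and 32%). Of the 123 cells, 83 lay at or below 43.9%, the 95th percentile of untreated cells (67.5%). A further 13 lay at or above 62.1%, the 5th percentile of treated cells (10.6%), and 27 lay between. At or below the median of untreated cells there were 36 of the 123 cells.

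The cells of cluster 6 stood apart from those of clusters 1 and 2. The median treated share was 31.9% in TGFB1 cells of cluster 1, 27.8% in cluster 2 and 61.5% in cluster 6, against 25.8%, 24.3% and 26.2% in untreated cells of those clusters. Of the 13 cells in the treated range, 10 belonged to cluster 6. On the authors' UMAP, 11 of the 21 cells of cluster 6 lay at a first coordinate above -2.5, with treated shares of 50.5% to 75.3%, and 10 lay below it, with shares of 22.4% to 69.7%. Of 842 untreated cells of cluster 6, 1 lay above -2.5. In cluster 2, 6 of 46 TGFB1 cells lay above it, with shares of 44.7% to 68.1% and a median of 3448.5 UMIs per cell. The UMAP and the treated share come from the same counts, so neither tests the other.

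**Figure D5:**
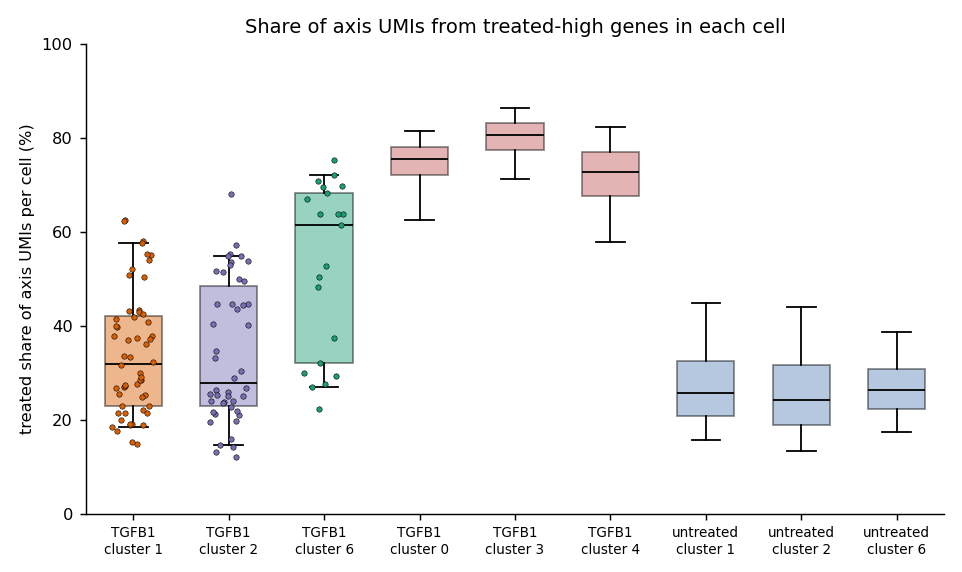
Treated share of each cell (percent of axis UMIs, the UMIs of treated-high and untreated-high genes together, that come from treated-high genes) for TGFB1 cells of clusters 1, 2 and 6, TGFB1 cells of clusters 0, 3 and 4 and untreated cells of clusters 1, 2 and 6. Boxes show quartiles and medians, whiskers the 5th and 95th percentiles, and points the 123 cells; the median is 61.5% in TGFB1 cells of cluster 6 and 26.2% in untreated cells of cluster 6.

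Depth moved weakly with the treated share. Over the 123 cells, which share 1 library, it had a Pearson correlation of 0.24 with UMIs per cell and of -0.21 with the mitochondrial share. As a mixture of the treated and the untreated profile, the best-fitting treated percent of a cell had a median of 9.7% in the 123 cells, 100% in treated cells and 0% in untreated cells, and at least 25% of the 123 cells were fitted at 0%. By cluster the medians were 4.4%, 0% and 68.3% in TGFB1 cells of clusters 1, 2 and 6. Whether free RNA or doublets contributed was not tested.

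SMAD response genes were highest in cluster 6 by their sum, and contractile genes in cluster 2. Summed over the 20 SMAD response genes, the level was 4729 CPM in TGFB1 cells of cluster 1, 4640 CPM in cluster 2 and 7727 CPM in cluster 6. Untreated cells of those clusters had 3801, 4080 and 3187 CPM, and treated cells of clusters 0, 3 and 4 had 10816 CPM. For contractile genes, the sums were 18173, 23386 and 17238 CPM in TGFB1 cells of clusters 1, 2 and 6, against 15028, 19680 and 12877 CPM in untreated cells. Relative to treated cells of clusters 0, 3 and 4, the median log2 ratio in TGFB1 cells of clusters 1, 2 and 6 was -1.18, -1.54 and -0.57 for SMAD response genes and -0.80, -0.85 and -1.07 for contractile genes. Cluster 6 thus lay nearest to these treated cells for the SMAD list and furthest from them for the contractile list. Against untreated cells of the same cluster, 9 of 20 contractile genes were higher and 2 lower in cluster 6 (median log2 ratio 0.42). Clusters 1 and 2 each had 3 higher and 0 lower (medians 0.21 and 0.14). Of all genes, 13.6% were higher and 12% lower in cluster 6, against 2.17% and 3.58% higher in clusters 1 and 2. Relative to TGFB1 cells of cluster 8, the contractile medians were -0.40, -0.37 and -0.67 in clusters 1, 2 and 6.

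Cluster 6 held cycling cells in both libraries. All 21 TGFB1 cells of cluster 6 had a UMI of MKI67 or TOP2A, genes of dividing cells, and over the 123 cells the share was 24.4% (30 cells), against 5.81% in treated cells and 18.2% in untreated cells. Cluster 6 made up 17.1% of the 123 cells and 11.0% of the untreated cells. Of the 348 TGFB1 cells of cluster 8, outside the treated group used here, 279 held such a UMI (80.2%), against 596 of the 10267 treated cells of clusters 0, 3 and 4. All 18 measured G2 and M phase genes were lower by 1.5-fold in treated than in untreated cells (12.7% of all genes were lower). The untreated group kept cluster 6 while the treated group left out cluster 8, so this difference is in part set by the choice of groups. Of the 18 genes, 15 differed by 2-fold and are among the untreated-high genes. All 15 lay at the untreated level in the 123 cells, so the untreated-high genes and the treated share include cell cycle genes. In the 123 cells 5 were higher and 0 lower than in untreated cells (3.4% and 1.04% of all genes). Within cluster 6, 0 of 23 were higher and 5 lower in TGFB1 than in untreated cells (median log2 ratio -0.36). Of 17 S phase genes there, 10 were higher and 0 lower (median 0.83), beside 13.6% and 12% of all genes. Set against TGFB1 cells of cluster 8, the cells of cluster 6 had a median position of 0.65 for treated-high and 0.47 for untreated-high genes. Set against TGFB1 cells of clusters 0, 3 and 4 these medians were 0.34 and 0.05.

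Some genes lay outside both groups. In the 123 cells 89 of 6907 genes were at least 1.5-fold above the higher group (1.29%) and 10 were at least 1.5-fold below the lower group (0.145%). Of the 89 genes, 10 were on the lists of cell cycle genes and 3 were histone genes. The lists held 18 measured G2 and M phase genes and 9 measured S phase genes. They do not name every gene of replication or division, so the 10 are not a full count of such genes. Among the 89 were BRCA1, CENPK, ECT2, KIF11, KIF23, KIF4A and KNL1. H4C3, a histone H4 gene, had 258 CPM in the 123 cells, 90.5 CPM in treated cells and 65.4 CPM in untreated cells. CLSPN, a checkpoint mediator at replication forks, had 33.2 CPM in the 123 cells, 0.86 CPM in treated cells and 7.22 CPM in untreated cells. RRM2, a ribonucleotide reductase subunit, had 39.9 CPM in the 123 cells, 2.35 CPM in treated cells and 15.4 CPM in untreated cells.

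These levels were highest in cluster 6. H4C3 stood at 56.4, 61.2 and 933 CPM in TGFB1 cells of clusters 1, 2 and 6, against 37.9, 41.2 and 244 CPM in untreated cells. Without cells holding an MKI67 or TOP2A UMI, 24 genes lay above both groups, of which 5 were shared with the 89. With cluster 8 added to the treated cells and untreated clusters weighted as in the 123 cells, 45 lay above, of which 44 were shared. In cluster 6 the summed level of 18 S phase genes was 1883 CPM in TGFB1 cells, 733 CPM in TGFB1 cells of cluster 8 and 1412 CPM in untreated cells of cluster 6. For 23 G2 and M phase genes the sum was 3689 CPM in TGFB1 cells of cluster 6, 3584 CPM in TGFB1 cells of cluster 8 and 4713 CPM in untreated cells of cluster 6.

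Of the 10 genes below both groups, BAMBI had the largest distance. TTYH3, a chloride channel family member, had 15.2 CPM in the 123 cells, 23.5 CPM in treated cells and 34.3 CPM in untreated cells. SFRP4, a secreted Wnt antagonist, had 34 UMIs, or 15.2 CPM, in the 123 cells, 25.5 CPM in treated cells and 23.6 CPM in untreated cells, and 41.2% of its UMIs came from 1 cell. Counts of this size limit what can be said of single genes.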

How the data were processed

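Single-cell transcriptomes of untreated and TGFB1-treated mesenchymal stem cells were measured in 1 library each, so there are no replicates. Per the submitters' processing notes, GRCh38, Seurat and Cell Ranger 9.0.1 were used, with no role given for any of them. Which annotation was counted is not stated. The authors deposited raw UMI counts for 38606 genes and 20656 cells, and a cell table with UMI and gene counts, the percent of mitochondrial UMIs, cluster numbers at resolution 0.4, and principal component and UMAP scores. Libraries and clusters were taken from that table.

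UMIs were summed over the cells of each group and divided by their total to give CPM. Exact 95% intervals are Poisson for sums and binomial (Clopper-Pearson) for shares. A position is the log2 ratio of the 123 cells over untreated cells divided by that of treated over untreated cells, for genes at 20 CPM or more and 2-fold apart. A listed gene counted as measured at 20 CPM in any group. Named genes were the 6 highest and 6 lowest positions and the 6 largest distances in each direction among 4-fold genes, the 8 furthest above and below both groups, the interleukin 6 family, up to 4 genes of each of 26 lists, PI16 and TSPAN13; further genes were named as members of those lists after their values were seen. Some genes are not reported here. Members and lists were chosen with earlier results of these data known.

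Doublets were not called and all deposited cells were kept. GENCODE release 29 gave gene positions, and 32336 names matched. On simulated counts of the 3 groups, with 200 of 6380 genes changed, 199 were recovered and 0 others were called. The changed genes were set 4-fold apart with counting error only, so their recovery at a 2-fold limit was nearly fixed in advance. In the data, 52 of 273 treated-high and 93 of 357 untreated-high genes differ by 4-fold or more. Genes at smaller distances and the spread between cells were not simulated. Genes simulated at a position of 0.25 were found at a median of 0.24, with a largest error of 0.242. The largest error was 0.319 at a simulated position of 0.5 and 0.505 at 1.0. Errors of this size can carry a single gene across the limits of the untreated and treated levels. The simulation therefore does not secure the level given for single genes. Alternatives were other scalings, minimum levels, cell weights, thinning to 7500 UMIs, single clusters and other reference cells. TMM factors came from edgeR 4.0.16 under R 4.3.3; all else ran in Python 3.11.15 with scipy 1.17.1, numpy 2.4.6, matplotlib 3.10.9 and pandas 2.3.3.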

Additional observations from a re-analysis of the deposited data

Results flagged for a closer look

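The reverse kind of cell also occurred, outside the comparisons made above. There were 27 untreated cells in clusters 0, 3 and 4, of which 16 were in cluster 0, 0 in cluster 3 and 11 in cluster 4. Their treated share of axis UMIs had a median of 51.9% (quartiles 49.2% and 61.7%). This was drawn to attention because it exceeds the median of 25.3% in untreated cells of clusters 1, 2 and 6. The 27 cells were chosen by clusters made from these same cells, so a higher share is in part set by that choice. Of the 27 cells, 7 lay at or above the 5th percentile of treated cells.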

How the results depend on the processing

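No paired analysis was possible because each condition had 1 library. With settings as in the report there were 89 genes above and 10 below both groups. There were 327 genes higher and 148 lower than in treated cells, and 56 higher and 6 lower than in untreated cells of the same clusters. Of 273 treated-high genes 79 lay at the untreated and 6 at the treated level, and of 357 untreated-high genes 261 and 2, with median positions of 0.34 and 0.14. The values that moved by over 1.5 times, or for medians beyond the interval, are given by setting, with treated-high genes named before untreated-high ones; the cause was not tested. With TMM factors there were 54 genes above both groups, 30 genes below both groups, 208 genes higher than in treated cells, 298 genes lower than in treated cells, 214 treated-high genes at the untreated level, 170 untreated-high genes at the untreated level, with median positions of 0.24 and 0.19. With median-of-ratios factors there were 55 genes above both groups, 28 genes below both groups, 213 genes higher than in treated cells, 283 genes lower than in treated cells, 200 treated-high genes at the untreated level, with median positions of 0.25 and 0.18. With a minimum of 5 CPM there were 369 genes above both groups, 131 genes below both groups, 829 genes higher than in treated cells, 288 genes lower than in treated cells, 198 genes higher than in untreated cells, 74 genes lower than in untreated cells, 427 treated-high genes, 134 treated-high genes at the untreated level, 25 treated-high genes at the treated level, 756 untreated-high genes, 545 untreated-high genes at the untreated level, 16 untreated-high genes at the treated level, with a median position of 0.11 for untreated-high genes. With a minimum of 50 CPM there were 19 genes above both groups, 0 genes below both groups, 128 genes higher than in treated cells, 16 genes higher than in untreated cells, 0 genes lower than in untreated cells, 51 treated-high genes at the untreated level, 2 treated-high genes at the treated level, 177 untreated-high genes, 127 untreated-high genes at the untreated level and 0 untreated-high genes at the treated level. With equal weight per cell there were 21 genes below both groups, 139 treated-high genes at the untreated level, 1 untreated-high gene at the treated level, with a median position of 0.27 for treated-high genes. With untreated clusters weighted as in the 123 cells there were 49 genes above both groups and 34 genes higher than in untreated cells. With cycling cells left out there were 24 genes above both groups, 41 genes below both groups, 241 genes lower than in treated cells, 15 genes higher than in untreated cells, 174 treated-high genes at the untreated level, 3 treated-high genes at the treated level, with median positions of 0.19 and 0.11. With cluster 1 alone there were 53 genes below both groups, 19 genes higher than in untreated cells, 17 genes lower than in untreated cells, 131 treated-high genes at the untreated level, 6 untreated-high genes at the treated level, with median positions of 0.22 and 0.072. With cluster 2 alone there were 458 genes below both groups, 1069 genes lower than in treated cells, 27 genes higher than in untreated cells, 75 genes lower than in untreated cells, 739 treated-high genes, 574 treated-high genes at the untreated level, 3 treated-high genes at the treated level, 8 untreated-high genes at the treated level, with median positions of 0.025 and 0.11. With cluster 6 alone there were 649 genes above both groups, 440 genes below both groups, 1136 genes higher than in treated cells, 423 genes lower than in treated cells, 328 genes higher than in untreated cells, 285 genes lower than in untreated cells, 174 treated-high genes at the untreated level, 91 treated-high genes at the treated level, 778 untreated-high genes, 563 untreated-high genes at the untreated level, 69 untreated-high genes at the treated level, with a median position of 0.05 for untreated-high genes. With cluster 6 set against cluster 8 there were 496 genes above both groups, 360 genes below both groups, 328 genes higher than in untreated cells, 285 genes lower than in untreated cells, 41 treated-high genes at the untreated level, 92 treated-high genes at the treated level, 109 untreated-high genes at the untreated level, 99 untreated-high genes at the treated level, with median positions of 0.65 and 0.47. With cluster 0 alone as the treated group there were 225 genes lower than in treated cells, 150 treated-high genes at the untreated level, 5 untreated-high genes at the treated level, with a median position of 0.29 for treated-high genes. With thinning there were 147 genes above both groups, 86 genes below both groups, 236 genes lower than in treated cells, 29 genes lower than in untreated cells, 128 treated-high genes at the untreated level, 7 untreated-high genes at the treated level, with a median position of 0.28 for treated-high genes. With linear positions there were 169 treated-high genes at the untreated level, with median positions of 0.22 and 0.23. With 4-fold genes there were 52 treated-high genes, 6 treated-high genes at the untreated level, 1 treated-high gene at the treated level, 93 untreated-high genes, 84 untreated-high genes at the untreated level, 0 untreated-high genes at the treated level, with median positions of 0.39 and 0.10. With cluster 8 added with weighted clusters there were 45 genes above both groups, 34 genes higher than in untreated cells and 1 untreated-high gene at the treated level. The median treated share, 33.3% over the 123 cells, was 42.9% over 4-fold genes, 41.2% when genes were counted as seen or not seen, 9.7% as a mixing fraction, 27.8% in cluster 2 and 61.5% in cluster 6. Leaving out cells holding an MKI67 or TOP2A UMI turned the log2 ratio of the 123 cells over untreated cells to -0.39 for ENSG00000250064, -1.10 for H1-3, -0.54 for HELLS, -0.63 for LIF, -0.094 for RFC3, -1.33 for RRM2 and -0.13 for UBE2C. In cluster 1 alone it was -0.30 for H1-3, -1.26 for HELLS, -0.56 for RFC3 and -0.81 for RRM2, in cluster 2 alone -0.41 for H1-3, -0.18 for RRM2 and -0.74 for UBE2C, and in cluster 6 alone -1.01 for PI16. The other alternatives turned no named gene's 2-fold ratio round. At 3 UMIs a gene stands at 1.34 CPM in the 123 cells, and at 5.88 CPM in the 21 cells of cluster 6, so the counts for single clusters rest on few UMIs per gene. The addition of cluster 8, its combination with weighted clusters, and the removal of the top cell were chosen after seeing the data.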

Other observations

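Growth factor genes lay at varied positions, and 1 of the 11 that differ by 2-fold between treated and untreated cells lay at the treated level, NRG1. PDGFC, a platelet-derived growth factor, had 90.1 CPM in the 123 cells, 115 CPM in treated cells and 43.7 CPM in untreated cells, just under the limit of 0.75 for the treated level. IGF1 had 231 CPM in the 123 cells, 315 CPM in treated cells and 149 CPM in untreated cells, a position of 0.59. HGF stayed nearer to the untreated level, with 19.7 CPM in the 123 cells, 2.45 CPM in treated cells and 29.99 CPM in untreated cells. ADM, the vasodilator adrenomedullin, had 88.3 CPM in the 123 cells, 9.89 CPM in treated cells and 127 CPM in untreated cells. Of 17 measured growth factor genes, 4 were higher and 1 was lower by 1.5-fold in the 123 cells than in untreated cells (3.4% and 1.04% of all genes). These genes were chosen after their values were seen, except HGF and ADM.

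HAS2, a hyaluronan synthase, had 136 CPM in the 123 cells, 89.7 CPM in treated cells and 68.8 CPM in untreated cells. It stood at 34.9, 28.1 and 486 CPM in TGFB1 cells of clusters 1, 2 and 6, against 40.1, 35.5 and 276 CPM in untreated cells of those clusters. In TGFB1 cells of cluster 8 it had 489 CPM, close to its level in cluster 6. With cluster 8 added to the treated cells and untreated clusters weighted as in the 123 cells, HAS2 was no longer among the genes above both groups.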
